A study of Homo sapiens with 30 samples.

Results

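The genes described are 8 members of the Wnt pathway, read in hCMEC/D3, a human brain microvascular endothelial line that was immortalised and serves as a cultured stand-in for the barrier between blood and brain. They are SFRP1, FZD4, FZD6, LRP5, LRP6, AXIN2, LEF1 and APCDD1. They were taken by symbol from the 63138 genes of the count table, and each symbol matched 1 gene. SFRP1 was selected on its higher level after C5a than in Control, so that difference is given as a description with no test.

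The RNA came from 30 libraries in 10 groups of 3, all of the same line after 12 h. In the 5 direct groups the cells received serum-free medium alone (Control), TNF at 25 ng/mL, IL-1β (group IL1b) at 10 ng/mL, the complement fragment C5a at 50 ng/mL or epinephrine at 200 nM. In the 5 vesicle groups, the same line received extracellular vesicles that had been enriched from medium of cells given those treatments. These groups carry the prefix EV, as in EV-Control for vesicles of unstimulated cells. The model is a single line, and the labels do not say whether replicates are separate cultures, so the p-values measure the spread between these libraries, which may be technical.

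Library totals ran from 16643961 to 22112326 counts. Of 10 endothelial markers, 9 had a median over 1 CPM (counts scaled by library size), and EMCN had a median of 0.196 CPM. Their summed level was 1066 to 1111 CPM in Control, 1055 to 1101 CPM in TNF, 774 to 916 CPM in the other direct groups and 669 to 824 CPM in the vesicle groups. Of 6 mural markers, 4 were over 1 CPM. Their sum was 323 to 480 CPM in the direct and 413 to 533 CPM in the vesicle groups, most of it CSPG4 (252 to 439 CPM). Of 5 fibroblast markers 1, COL1A1 (56.9 to 124 CPM), was over 1 CPM, and the list's sum was 57.7 to 81.9 CPM in direct and 81 to 125 CPM in vesicle groups. Of 4 astrocyte markers 1, GFAP, was over 1 CPM, AQP4 had no count in any library, and the list summed to 1.4 to 5.78 CPM. No leukocyte or epithelial marker had a median over 1 CPM. The part of these shifts in the results that follow was not tested, and in bulk RNA fewer cells with a transcript and less transcript per cell cannot be told apart.

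Wnt ligands bind a Frizzled receptor (FZD genes) together with the co-receptor LRP5 or LRP6. This stops the breakdown of β-catenin, which then enters the nucleus and works with TCF and LEF factors to raise target genes such as AXIN2. In brain endothelium this signal is known to be needed for vessel growth into the brain and for barrier properties, including claudin-5. FZD4 with LRP5 and the cofactor TSPAN12 is known as the receptor for norrin in retinal vessels, and APCDD1 and LEF1 are used as marks of Wnt-active barrier vessels. In these libraries TSPAN12 was too low to be tested in the direct or vesicle comparisons, with a mean of 0.33 CPM in Control.

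The receptors and co-receptors among the 8 genes were detected in every library. Of the target genes among the 8, AXIN2 was detected in every library at low counts (6 to 31), and LEF1 and APCDD1 were near or below the detection limit. Per kilobase of exon, the order FZD6, LRP5, FZD4, LRP6, SFRP1, AXIN2 held in 30 of 30 libraries. Group means ran from 41.9 to 52.8 CPM per kb for FZD6, 20.5 to 39.6 for LRP5, 14.1 to 20.4 for FZD4, 4.81 to 5.97 for LRP6, 0.453 to 3.22 for SFRP1 and 0.112 to 0.213 for AXIN2. LEF1 and APCDD1 were below these at 0.0238 CPM per kb or less and did not pass the filter on low counts. So 6 of the 8 genes were tested.

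The promoters of LRP5 and FZD4 are shown because these were the receptor genes that were lower both after TNF and after C5a. Each is the stretch before the RefSeq transcript start, read 5′ to 3′ on the gene's strand (RefSeq, GRCh38.p14). Capitals mark GC boxes, GGGCGG on either strand.
LRP5, chr11:68312341-68312590, plus strand: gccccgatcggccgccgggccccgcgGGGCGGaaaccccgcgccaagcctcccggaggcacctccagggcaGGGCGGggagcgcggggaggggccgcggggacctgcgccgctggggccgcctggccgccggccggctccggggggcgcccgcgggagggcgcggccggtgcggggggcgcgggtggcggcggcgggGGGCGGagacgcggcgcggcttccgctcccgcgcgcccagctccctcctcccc
FZD4, chr11:86955396-86955645, minus strand: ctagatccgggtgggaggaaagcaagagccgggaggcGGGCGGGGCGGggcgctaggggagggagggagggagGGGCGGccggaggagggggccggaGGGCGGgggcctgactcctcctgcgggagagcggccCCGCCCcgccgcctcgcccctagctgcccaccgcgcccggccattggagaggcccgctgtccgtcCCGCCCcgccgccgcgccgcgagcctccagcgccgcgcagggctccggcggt
The LRP5 window held 3 GC boxes at a G and C content of 87.2%, and the FZD4 window held 6, of which 2 overlap, at 80.8%. At least 1 GC box was found in 42.64% of the 35116 RefSeq promoters of the same length. A search of both strands for TCF/LEF motifs (CTTTGAT or CTTTGAA, in 5.94% of promoters), the NF-kappaB motif (3.52%) and the cAMP response element (TGACGTCA, 1.65%) found no match in either window. RefSeq promoter entries matched 4 of the 8 genes, the others being LEF1 and APCDD1.

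LRP5, the co-receptor that joins FZD4 at norrin and Wnt ligands, fell in all 4 direct comparisons. The gene lies at chr11:68312609-68449275 (plus strand). Its level was 249, 250 and 233 CPM in the 3 Control libraries. It was 131, 122 and 126 CPM after TNF, 160, 158 and 163 CPM after IL1b, 202, 200 and 202 CPM after C5a, and 182, 177 and 176 CPM after epinephrine. No library of a treated group reached the lowest Control library. By edgeR's quasi-likelihood test, adjusted over all genes by Benjamini-Hochberg, the log2 fold change was -0.95 for TNF (SE 0.05, adjusted p = 1.60e-19), which is 0.519 of the Control level. It was -0.60 for IL1b (SE 0.04, adjusted p = 1.09e-13), -0.45 for epinephrine (SE 0.04, adjusted p = 7.66e-10) and -0.27 for C5a (SE 0.04, adjusted p = 1.48e-05). These comparisons share the Control libraries. IL1b and TNF share none of their treated libraries, and LRP5 was 1.27-fold higher after IL1b than after TNF (log2 0.34, SE 0.05, adjusted p = 8.92e-08).

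LRP6, the other co-receptor, was higher, not lower, where it passed. It lies at chr12:12116025-12267012 (minus strand). Control libraries held 49.9, 49.6 and 49.6 CPM. The TNF libraries held 57, 59.2 and 51.3 CPM, the IL1b libraries 59.7, 60.5 and 58 CPM, the C5a libraries 58.5, 56.3 and 56.3 CPM and the epinephrine libraries 57.8, 50.2 and 53.8 CPM. LRP6 rose after IL1b (log2 0.26, SE 0.06, edgeR adjusted p = 0.000824) and after C5a (log2 0.20, SE 0.06, adjusted p = 0.0154, and 0.0694 without C5a replicate 1). The value after epinephrine was 0.12 (SE 0.06, 95% interval -0.01 to 0.25, adjusted p = 0.174, and 0.17 with an adjusted p of 0.043 without epinephrine replicate 2). After TNF it passed at log2 0.17 (SE 0.06, adjusted p = 0.0232), but the direction turned to -0.11 (adjusted p = 0.149) when libraries were scaled by total counts. That TNF call was also lost with no low-count filter (0.0502) and without Control replicate 2 (0.0567), Control replicate 3 (0.0506), TNF replicate 1 (0.0659) or TNF replicate 2 (0.148). Scaling by total counts moved the median of all genes after TNF to -0.29 from -0.01, so a change of LRP6 after TNF is relative to that scale.

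The ratio of LRP5 to LRP6 within a library, per exon length, does not depend on the scaling. It was 8.23 ± 0.317 in Control (SD, n = 3), 3.81 ± 0.332 after TNF, 4.53 ± 0.183 after IL1b, 5.57 ± 0.314 after epinephrine and 5.92 ± 0.127 after C5a. All the Control libraries (7.87 to 8.47) lay above all direct treated libraries, of which the highest was 6.02. The vesicle group means ran from 5.79 ± 0.155 in EV-C5a to 6.79 ± 0.415 in EV-Epinephrine, with EV-Control at 5.81 ± 0.275. With 3 libraries against 3 an exact permutation test cannot go below p = 0.1, two-sided, and this value was reached by each of the 4 direct comparisons, in which the ratio was lower, and by EV-TNF (difference 0.567) and EV-Epinephrine (difference 0.98), in which it was higher than in EV-Control.

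**Figure D1:**
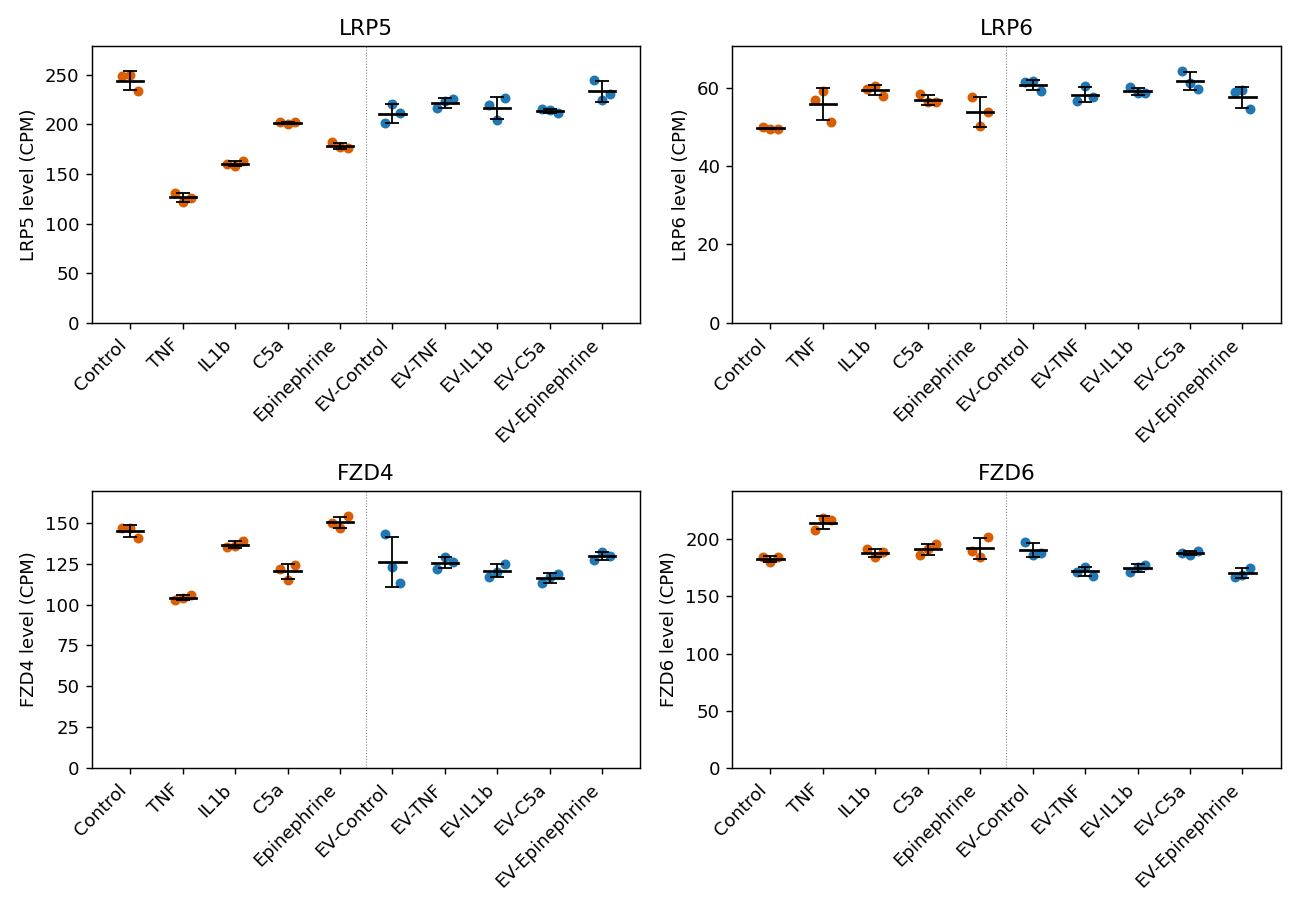
Levels of LRP5, LRP6, FZD4 and FZD6 in CPM (vertical axes from 0) in the 10 groups. Points are libraries, orange for direct and blue for vesicle groups, and bars are the mean and SD of 3 libraries. LRP5 was lowest in the TNF group at 122 to 131 CPM against 233 to 250 CPM in Control.

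**Figure D2:**
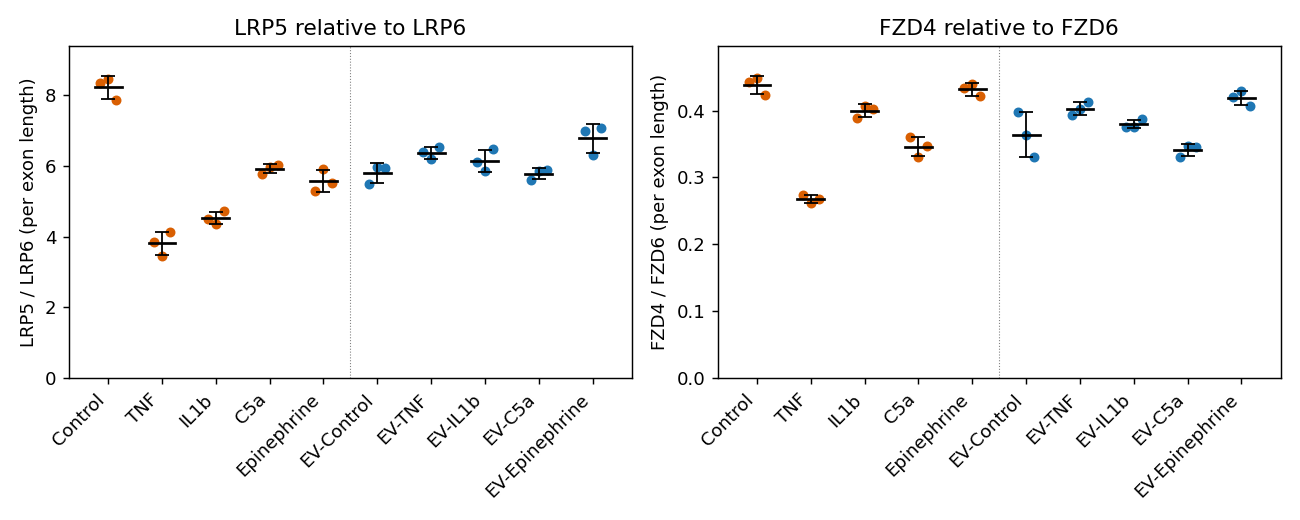
Ratio of LRP5 to LRP6 (left) and of FZD4 to FZD6 (right) within each library, per exon length, with the mean and SD of 3 libraries per group. Orange points are direct and blue points vesicle libraries. The LRP5 to LRP6 ratio was 7.87 to 8.47 in Control and 3.46 to 4.12 after TNF.

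FZD4, the Frizzled receptor for norrin, fell after TNF and C5a. It lies at chr11:86945679-86955391 (minus strand). Control libraries held 147, 147 and 141 CPM, TNF libraries 103, 104 and 106 CPM and C5a libraries 122, 115 and 124 CPM, with no overlap. The log2 fold change was -0.48 for TNF (SE 0.05, edgeR adjusted p = 7.11e-11) and -0.27 for C5a (SE 0.05, adjusted p = 3.31e-05). After IL1b the libraries held 135, 136 and 139 CPM and after epinephrine 150, 147 and 154 CPM. Neither difference passed (IL1b -0.09, 95% interval -0.18 to 0.00, adjusted p = 0.113, epinephrine 0.05, interval -0.04 to 0.14, adjusted p = 0.471). IL1b passed under total-count scaling (-0.17, adjusted p = 0.00203), with a mean count of at least 50 (-0.12, adjusted p = 0.0252) and with only the groups compared (-0.09, adjusted p = 0.0476). FZD4 was higher after IL1b than after TNF (log2 0.39, SE 0.05, adjusted p = 1.50e-08).

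Up to 1255 exon bases of FZD4 overlap PRSS23 on the other strand, and 18.43% of the 50-base stretches of FZD4 transcripts also occur in another gene, nearly all in PRSS23. Whether counting used the strand is not given in the sources used here, so reads of this stretch could belong to either gene. PRSS23 was at 337 CPM in Control, 374 CPM after TNF and 416 CPM after C5a, while FZD4 was at 145, 104 and 120 CPM.

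FZD6, a Frizzled receptor known best from planar cell polarity, rose after TNF. It lies at chr8:103298433-103332866 (plus strand), and up to 138 exon bases overlap the antisense gene BAALC-AS1. Libraries held 184, 180 and 184 CPM in Control and 208, 218 and 217 CPM after TNF. The log2 fold change was 0.23 (SE 0.04, edgeR adjusted p = 2.90e-05), and it was -0.04 (adjusted p = 0.418) under total-count scaling. The other direct groups spanned 184 to 202 CPM and their differences from Control did not pass (0.04 for IL1b, interval -0.05 to 0.13, 0.07 for C5a and 0.07 for epinephrine, both -0.02 to 0.16). FZD6 was lower after IL1b than after TNF (log2 -0.19, SE 0.04, adjusted p = 0.000593, and 0.00 under total-count scaling). The ratio of FZD4 to FZD6 per exon length, which needs no scaling, was 0.438 ± 0.0135 in Control, 0.268 ± 0.00551 after TNF and 0.346 ± 0.0145 after C5a (SD, n = 3).

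SFRP1, a secreted decoy that binds Wnt ligands and Frizzled receptors, had a highest group mean (EV-IL1b) 7.11-fold its lowest (Control). Control is one of the groups on which the gene was picked, so this range is a description. The gene lies at chr8:41261958-41309497 (minus strand), and no 50-base stretch of its transcripts occurs in another gene. Control libraries held 2.01, 2.39 and 2.07 CPM, from 120 counts in all. Levels were 2.8, 4.22 and 3.96 CPM after TNF, 6.63, 4.49 and 5.23 CPM after IL1b, 7.33, 6.95 and 8.63 CPM after C5a, and 12.4, 12.5 and 13 CPM after epinephrine. On this CPM scale each direct group lay wholly above the one before it in that order. Under total-count scaling not every library outside Control lay above the Control libraries.

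The C5a mean was 7.64 ± 0.882 CPM against 2.16 ± 0.207 CPM in Control (SD, n = 3), a log2 difference of 1.83 (SE 0.18) that chose the gene. The other direct comparisons use the same Control libraries, so their p-values are not independent of that choice. SFRP1 rose after epinephrine (log2 2.54, SE 0.17, edgeR adjusted p = 1.34e-13, a 5.83-fold level), which ranked 6 of 1972 genes that rose with at least 5 CPM. It rose after IL1b (log2 1.33, SE 0.19, adjusted p = 3.31e-07, ranked 111 of 3458) and after TNF (log2 0.78, SE 0.20, adjusted p = 0.00152). The IL1b and TNF groups themselves differed at log2 0.56 (SE 0.18, adjusted p = 0.00986), and this call was lost without TNF replicate 1 (0.0821) or IL1b replicate 1 (0.107).

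**Figure D3:**
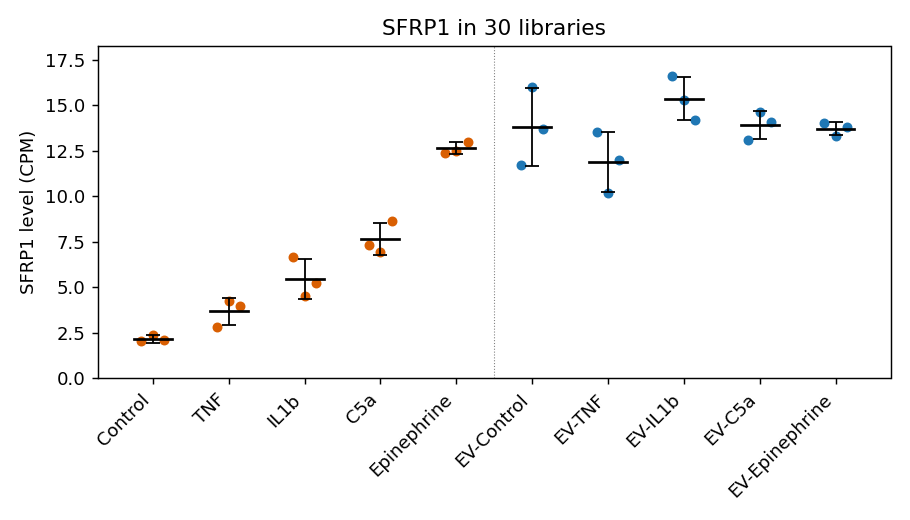
SFRP1 level in CPM in 30 libraries of 10 groups, with the mean and SD of 3 libraries. Orange points are direct and blue points vesicle libraries. Control libraries sit at 2.01 to 2.39 CPM, and the vesicle libraries, EV-Control included, at 10.2 to 16.6 CPM.

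All the vesicle groups had high SFRP1, the vesicles of unstimulated cells included. EV-Control libraries held 11.7, 16 and 13.7 CPM, a 6.38-fold level over Control (log2 2.67, SE 0.16, edgeR adjusted p = 7.61e-21), which ranked 7 of 1798 rising genes. This comparison also uses the Control libraries that chose SFRP1. The other vesicle libraries held 13.5, 10.2 and 12 CPM for EV-TNF, 16.6, 15.3 and 14.2 CPM for EV-IL1b, 13.1, 14.6 and 14.1 CPM for EV-C5a and 14, 13.3 and 13.8 CPM for EV-Epinephrine. None of these groups differed from EV-Control past the threshold, at log2 values of -0.22 (95% interval -0.45 to 0.01), 0.15 (-0.07 to 0.37), 0.01 (-0.21 to 0.23) and -0.01 (-0.24 to 0.21). In the order of group means, the vesicle groups and the epinephrine group overlapped their neighbours, except epinephrine (12.4 to 13 CPM) and EV-Epinephrine (13.3 to 14 CPM).

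EV-Control against Control was a comparison in which 4 of the 6 tested genes passed, 3 of 5 without SFRP1, against 21.9% of all genes. Beside SFRP1, LRP6 was at 61.4, 61.7 and 59.3 CPM in EV-Control and rose (log2 0.29, SE 0.06, edgeR adjusted p = 0.000108). LRP5 was at 201, 220 and 211 CPM, below every Control library, and fell (log2 -0.22, SE 0.04, adjusted p = 5.83e-05). FZD4 was at 143, 123 and 113 CPM, overlapping Control, and passed at -0.21 (SE 0.05, adjusted p = 0.000912), a call lost without EV-Control replicate 3 (0.0632) and when the fit held those 2 groups alone (0.07). FZD6 was at 197, 186 and 188 CPM (log2 0.06, interval -0.02 to 0.14). The vesicle groups and the direct groups differ in the whole treatment, vesicles against serum-free medium, and what in that treatment moved with these genes was not tested.

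For LRP6 every one of the 27 libraries outside Control lay above the 3 Control libraries, as did SFRP1, where this is a description. Such a pattern was found in 2.05% of 16691 genes, and under total-count scaling neither gene had it.

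Among the direct comparisons, TNF called 5 of 6 tested members against 52.7% of all genes, IL1b 3 of 6 against 46.6%, and epinephrine 2 of 6 against 25.2%. C5a called 3 of 5, with SFRP1 left out, against 22.6%. With SFRP1 left out of the other 3 as well, since they use the Control libraries on which it was picked, TNF called 4 of 5, IL1b 2 of 5 and epinephrine 1 of 5. IL1b against TNF called 4 of 6 against 41.4%. After TNF and IL1b about every other gene tested passed, so a call there is common.

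Vesicles of stimulated cells were compared with those of unstimulated cells. EV-TNF called 1 of 6 (13.3% of all genes), EV-IL1b 1 of 6 (14.6%), EV-Epinephrine 2 of 6 (19.7%) and EV-C5a 0 of 6 (0.0503%). For EV-C5a no member had an unadjusted p under 0.05 and DESeq2 called 0. FZD6 was the gene that fell, at 171, 176 and 168 CPM in EV-TNF (log2 -0.15, SE 0.04, edgeR adjusted p = 0.00344) and 167, 169 and 175 CPM in EV-Epinephrine (log2 -0.16, SE 0.04, adjusted p = 0.00105), against 197, 186 and 188 CPM in EV-Control. In EV-IL1b it was at 171, 176 and 177 CPM (log2 -0.12, SE 0.04, adjusted p = 0.0158), which did not pass without EV-Control replicate 1 (0.125), without EV-IL1b replicate 1 (0.09) or with only the groups compared (0.0507). LRP5 rose in EV-Epinephrine to 245, 224 and 230 CPM (log2 0.15, SE 0.04, adjusted p = 0.00353, and 0.0851 without EV-Epinephrine replicate 1).

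The test of the difference between vesicle and direct responses, an interaction term in a fit of all 30 libraries, called 5 of 6 members for TNF (44.7% of all genes), 4 of 6 for IL1b (35.2%), 3 of 6 for epinephrine (24.2%) and 1 of 5 for C5a (11.9%). Without SFRP1 the first 3 counts were 4, 3 and 2 of 5. LRP5 was called in each: its vesicle log2 fold change minus its direct one was 1.02 (TNF), 0.65 (IL1b), 0.61 (epinephrine) and 0.30 (C5a). In that order the direct log2 fold changes of LRP5 were -0.95, -0.60, -0.45 and -0.27. Its vesicle ones were smaller, at 0.07, 0.04, 0.15 and 0.02, and passed in EV-Epinephrine only. For SFRP1 in C5a, described only, the vesicle response was 1.81 log2 units below the direct one (-1.81, SE 0.21).

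**Figure D4:**
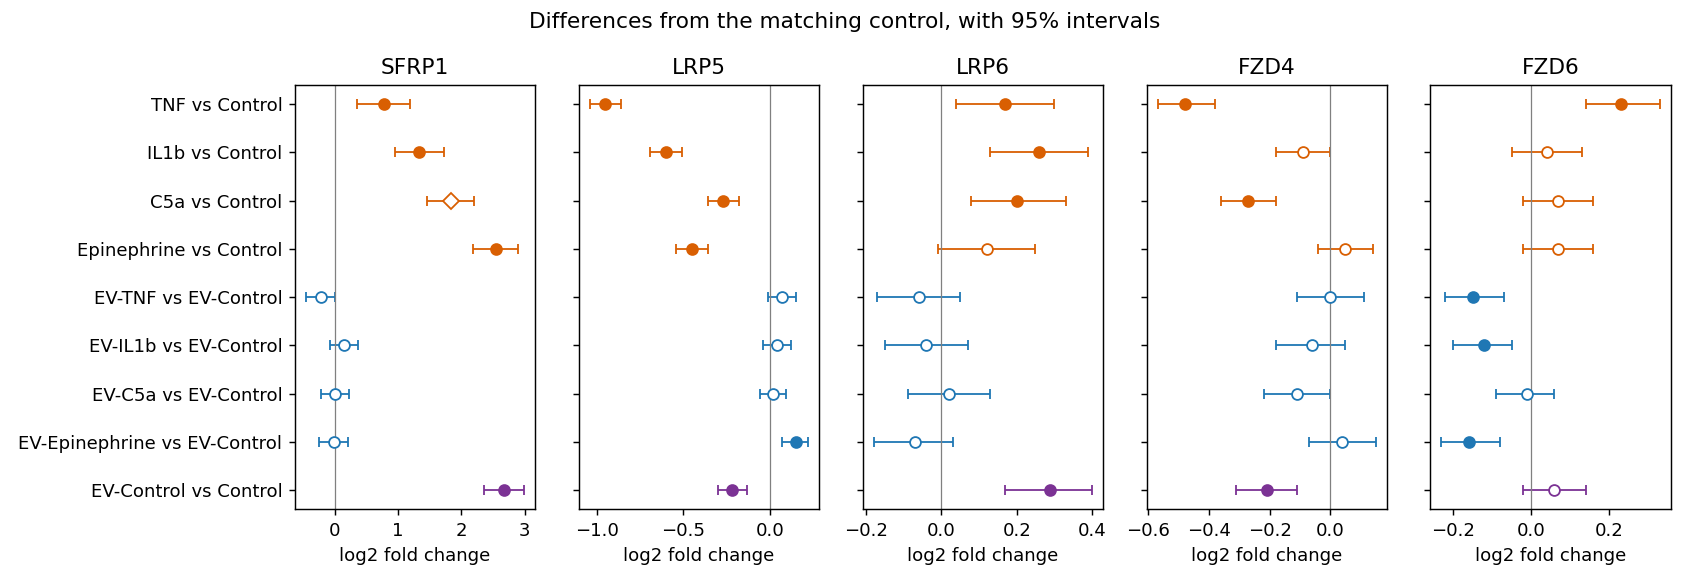
Log2 fold changes of 5 genes against the matching control, with 95% intervals, in 9 comparisons. Filled circles passed an adjusted p of 0.05, open circles did not, and the open diamond is SFRP1 after C5a, which was not tested. Orange is direct, blue is vesicle and purple is EV-Control against Control. The horizontal scales differ between genes.

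AXIN2, the scaffold of the β-catenin destruction complex and a standard target of the pathway, was detected in every library at 6 to 31 counts, 456 in all 30. It lies at chr17:65528563-65561647 (minus strand). Group means ran from 0.585 ± 0.245 CPM after epinephrine and 0.6 ± 0.242 CPM after TNF to 1.12 ± 0.405 CPM in EV-TNF, with 0.812 ± 0.202 CPM in Control (SD, n = 3). It passed in 0 of 14 comparisons by edgeR and 0 by DESeq2, with a lowest unadjusted p of 0.168. The 95% intervals reached from -1.87 to 1.77 on the log2 scale, so a change of over 2-fold was not detectable at this depth in some comparisons. Up to 931 of its exon bases are shared with AC004805.1 on the same strand, which holds 24.14% of the 50-base stretches of AXIN2.

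LEF1, a nuclear partner of β-catenin and itself a target, had 18 counts over 30 libraries. It lies at chr4:108047545-108168956 (minus strand). It had no count in 20 libraries, and 1 library, a TNF library with 5 counts, was above the 3 counts that a count of 0 allows. That limit corresponds to 0.16 CPM in a library of median size and covers counting error only. APCDD1, a membrane inhibitor raised by Wnt in barrier vessels, had 2 counts, 1 in an IL1b and 1 in an EV-Control library, and none in the other 28 libraries. It lies at chr18:10454628-10489948 (plus strand). Neither gene was detectable above the limit in Control, so the table gives no measure of a change for them.

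**Figure D5:**
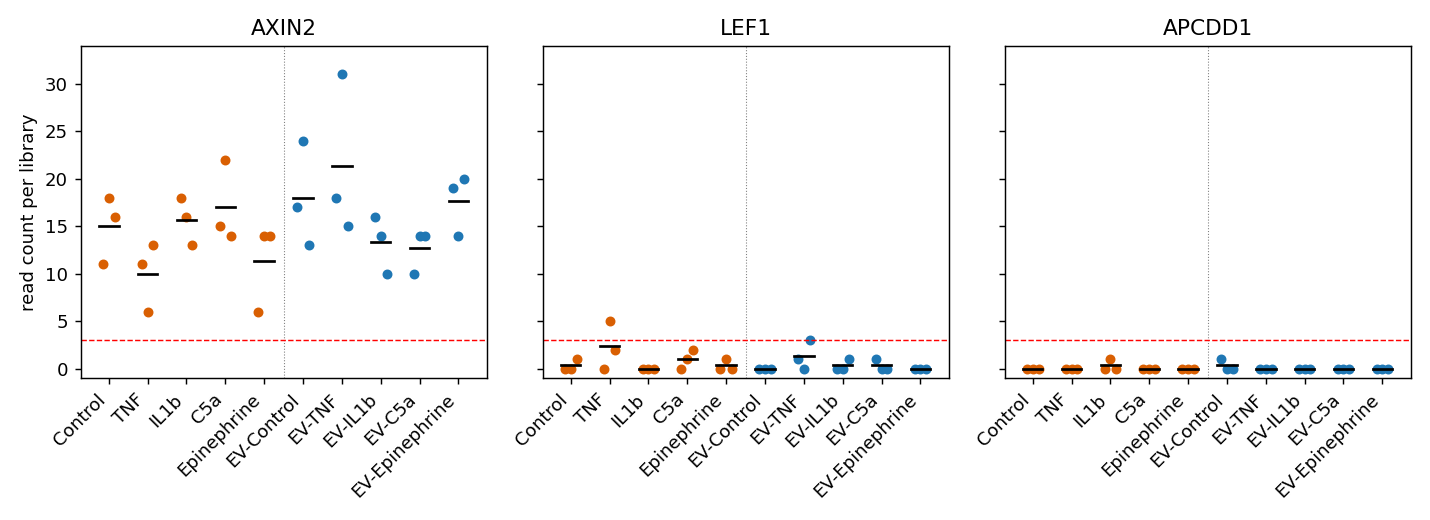
Raw read counts of AXIN2, LEF1 and APCDD1 in 30 libraries (points) with group means (bars). Orange is direct and blue is vesicle. The dashed line marks 3 counts, the limit that a count of 0 allows, and APCDD1 has no library above 1 count.

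Other genes of the pathway were read from 7 lists of 101 genes by role, of which 62 were tested in the direct and 60 in the vesicle comparisons. After TNF 41 of 62 passed (20 higher, 21 lower, 11 and 37 under total-count scaling) with a median log2 fold change of -0.07, beside 52.7% and a median of -0.01 for all genes. After IL1b 35 passed (15 higher, 20 lower, 10 and 22 under total-count scaling, 46.6% of all genes), after C5a 21 (9 and 12, 22.6% of all) and after epinephrine 29 (8 and 21, 25.2% of all). In the vesicle comparisons 13 of 60 passed for EV-TNF (13.3% of all genes), 14 for EV-IL1b (14.6% of all), 19 for EV-Epinephrine (19.7% of all) and 1, SOX17, for EV-C5a (log2 -0.43, edgeR adjusted p = 0.0357, 0.0503% of all). In EV-Control against Control 19 of 63 passed (13 higher, 6 lower, 12 and 9 under total-count scaling, 21.9% of all genes).

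Among secreted inhibitors, DKK1, which blocks LRP5 and LRP6, rose in each direct comparison and passed in none of the vesicle ones. Its mean was 48.4 ± 1.3 CPM in Control, 147 ± 8.94 CPM after TNF, 106 ± 2.75 CPM after IL1b, 83.7 ± 10.6 CPM after epinephrine and 76.8 ± 2.88 CPM after C5a (SD, n = 3). The log2 fold changes were 1.61, 1.13, 0.79 and 0.67 (edgeR adjusted p = 2.45e-21, 2.88e-16, 2.27e-11 and 1.28e-09). The vesicle groups held 54.4 to 67.1 CPM, and EV-Control was at 55.3 ± 9.01 CPM (log2 0.19 against Control, adjusted p = 0.208), a comparison where SFRP1 differed by 2.67. DKK3, a related secreted protein, fell in all 4 direct comparisons, from 286 ± 8.14 CPM to 189 ± 4.9 CPM after IL1b (log2 -0.60). CTNNBIP1, which blocks β-catenin binding to TCF, fell after IL1b (log2 -0.89, SE 0.09) and TNF (-0.87, SE 0.09). It fell by less after epinephrine (-0.41, SE 0.08) and C5a (-0.31, SE 0.08).

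Of the ligand genes and their secretion factors, 8 of 26 were tested. WNT9A fell from 8.95 ± 0.311 CPM to 2.57 ± 0.68 CPM after IL1b (log2 -1.80, SE 0.19) and to 2.99 ± 0.619 CPM after TNF (log2 -1.57, SE 0.19). WNT5B, a ligand of β-catenin-independent signalling, rose after TNF (log2 0.77, SE 0.07), as did WLS, the carrier for Wnt secretion (0.66, SE 0.04). WNT5B also rose after IL1b (0.30) and fell after epinephrine (-0.35), and WLS fell after epinephrine (-0.47) and C5a (-0.25). WNT2B fell after TNF (-0.66, SE 0.14) and IL1b (-0.53, SE 0.13) and rose after epinephrine (0.40, SE 0.12).

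Of 11 receptor genes tested beside the 4 above, 9 (81.8%, against 52.7% of all genes) passed after TNF, 3 higher and 6 lower (1 and 8 under total-count scaling). FZD8 rose from 5.12 ± 0.993 to 19.7 ± 0.706 CPM (log2 1.94, SE 0.14) and did not pass after IL1b, C5a or epinephrine. With vesicles FZD8 went the other way, from 7.54 ± 2.57 CPM in EV-Control. It fell to 3.55 ± 0.627 CPM in EV-TNF (-1.08, SE 0.19) and to 3.83 ± 0.682 CPM in EV-IL1b (-0.98, SE 0.19). The FZD8 mean was 4.11 ± 0.0434 CPM in EV-Epinephrine and 6.29 ± 0.703 CPM in EV-C5a. FZD1 fell after TNF (-1.04, SE 0.14). FZD1 also fell after IL1b (-0.77, SE 0.13) and epinephrine (-0.52, SE 0.13). ADGRA2, known as GPR124 and needed with RECK for WNT7 signals in brain endothelium, fell from 13.9 ± 0.849 to 5.13 ± 0.705 CPM after TNF (log2 -1.45, SE 0.13) and to 7.25 ± 0.731 CPM after IL1b (-0.94, SE 0.12). ADGRA2 also fell after epinephrine (-0.55, SE 0.12). In EV-Epinephrine FZD7 rose from 2.68 ± 0.405 to 5.79 ± 0.681 CPM (log2 1.11, SE 0.20). FZD7 also rose in EV-TNF (0.78, SE 0.20) and EV-IL1b (0.69, SE 0.20).

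Inside the cell, 15 of 15 genes were tested and 8 passed after TNF, 53.3% against 52.7% of all genes. Of these 5 were higher and 3 lower (1 and 11 under total-count scaling). APC2 of the destruction complex family fell (log2 -1.42, SE 0.22) and BTRC, which marks β-catenin for breakdown, rose (0.52, SE 0.09). APC2 also fell after IL1b (-0.51), and BTRC also rose after IL1b (0.42), C5a (0.43) and epinephrine (0.24). DVL2, which carries the signal from Frizzled, fell after TNF (-0.47, SE 0.05), epinephrine (-0.41), IL1b (-0.33) and C5a (-0.15). CSNK1E, a kinase that acts on Dishevelled, fell after C5a (-0.51, SE 0.06), IL1b (-0.18) and epinephrine (-0.18). It did not pass after TNF (0.00). Of 11 nuclear genes, 8 (72.7%) passed after TNF, 4 higher and 4 lower (2 and 8 under total-count scaling). The co-repressor TLE4 rose (1.08, SE 0.07), and TLE2 (-0.64, SE 0.11) and TCF7 (-0.68, SE 0.13) fell. These genes passed in the same direction after IL1b (0.40, -0.32 and -0.65). TLE4 also rose after C5a (0.36), and TCF7 also fell after epinephrine (-0.36). PYGO1, a co-activator, rose in EV-Epinephrine (1.09, SE 0.21), EV-IL1b (0.99, SE 0.21) and EV-TNF (0.82, SE 0.22).

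Of 14 other target genes 7 were tested in the direct groups. After TNF 5 of these passed (71.4%, against 52.7% of all genes), 4 higher and 1 lower (4 and 2 under total-count scaling). After TNF 4 rose, MYC (log2 1.26, SE 0.05), SOX17 (1.23, SE 0.07), BAMBI (1.13, SE 0.16) and CCND1 (1.09, SE 0.06), and 1 of the 7, TNFRSF19, fell (from 1.12 to 0.509 CPM, log2 -1.16, SE 0.48, edgeR adjusted p = 0.0406, named after its value was seen). Each of the 4 that rose is also known to answer to other signals. MYC and CCND1 also rose after IL1b (0.98 and 0.48), epinephrine (0.62 and 0.29) and C5a (0.25 and 0.35). BAMBI did not pass after those stimuli. ZNRF3, also on this list and named after its value was seen, was at 15.7 CPM in Control. It rose after IL1b to 19.4 CPM (log2 0.30, SE 0.09) and did not pass after TNF (-0.22, SE 0.10). SOX17, an endothelial transcription factor, had 45.1 ± 3.58 CPM in Control, 105 ± 6.7 CPM after TNF and 21.1 ± 1.54 CPM after C5a, where it fell (log2 -1.09, SE 0.08, edgeR adjusted p = 4.14e-13). With vesicles SOX17 was at 47.1 ± 5.68 CPM in EV-Control, and its mean was lower in every other vesicle group. These means were 33 ± 4.21 CPM in EV-TNF (log2 -0.52, SE 0.08), 31.1 ± 2.11 CPM in EV-IL1b, 35 ± 1.55 CPM in EV-C5a and 28.8 ± 2.18 CPM in EV-Epinephrine.

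The barrier genes linked to the pathway included CLDN5, the main claudin of brain endothelial tight junctions, which fell in all 4 direct comparisons. Its mean was 47.5 ± 3.39 CPM in Control, 16.5 ± 1.54 CPM after IL1b, 19.3 ± 0.426 CPM after C5a, 19.7 ± 1.45 CPM after TNF and 25.6 ± 3.31 CPM after epinephrine (SD, n = 3). It was 15.1 ± 0.941 CPM in EV-Control (log2 -1.66 against Control, SE 0.09, edgeR adjusted p = 6.61e-23) and 15.5 to 19.6 CPM in the other vesicle groups. SLC2A1, the glucose transporter GLUT1, fell from 194 ± 6.69 CPM to 144 ± 2.34 CPM after TNF (log2 -0.43, SE 0.05) and by less in the other direct groups (-0.17 for IL1b, -0.24 for C5a, -0.31 for epinephrine). ABCB1, the efflux pump P-glycoprotein, rose after TNF (0.33, SE 0.05, and 0.05 with an adjusted p of 0.342 under total-count scaling) and fell after IL1b (-0.20), C5a (-0.26) and epinephrine (-0.21). MFSD2A, a lipid transporter of barrier endothelium, rose after IL1b from 6.53 ± 0.683 to 13.8 ± 1.12 CPM (log2 1.09, SE 0.14).

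The genes whose group means followed SFRP1 most closely, by Pearson's r of log2 CPM over 10 groups among 11053 genes, were POLQ (0.94), AP1S3 (0.90), SCN9A (0.90), MALAT1 (0.89) and ATP2B1 (0.89). POLQ ran from 53.8 CPM in TNF to 64.9 CPM in EV-IL1b. SCN9A ran from 2.78 CPM in TNF to 8.28 CPM in EV-IL1b. The points include Control and C5a, on which SFRP1 was picked, and share libraries and their depth, so these values only describe the groups. By Spearman's rho the 5 closest genes were others (0 of 5 shared).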

How the data were processed

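Raw read counts per gene, as the authors deposited them, were used for 30 libraries of hCMEC/D3 cells. Per the labels' protocols, the NEBNext Ultra kit was used on total RNA, all in 1 batch. Per the submitters' processing notes, hg38, FastQC, STAR, DESeq2 and R 4.4.1 were used. The counting program, annotation and strand setting are not given in the sources used here. Of 63147 lines, 4 without a gene ID (0.00079% to 0.0016% of counts), 2 gene lines without counts (TTN and ANK2) and repeats of 3 gene IDs were left out. Positions are those of GENCODE 29 on GRCh38.

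Counts were filtered with filterByExpr, scaled with TMM factors and tested with edgeR 4.0.16 (R 4.3.3) by its robust quasi-likelihood test, two-sided, with Benjamini-Hochberg adjustment over all genes of a fit. A call is an adjusted p under 0.05. The fits held 15908 genes (15 direct libraries), 15918 genes (15 vesicle libraries) and 16691 genes (all 30, for EV-Control against Control and the interactions). CPM use factors over all 30 libraries, and per-length values use exon length. Log2 CPM for the likeness to SFRP1 used a prior count of 2. The test was checked on simulated data with known changes in a small share of genes, as many higher as lower. That setting did not cover a comparison such as TNF, where 52.7% of all genes passed. The table holds no molecular identifiers, so limits from counts cover counting error only.

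The genes and lists were chosen with earlier results of these data known. Beside the 8 genes, up to 4 genes per list were named by the largest change among those that passed, did not overlap and reached a mean of 5 CPM in either group, and CLDN5, SLC2A1 and ABCB1 always. Further comparisons of SOX17, DKK1, DKK3, ADGRA2, WNT9A and the barrier genes were added after their values were seen. Comparisons of WNT5B, WLS, WNT2B, FZD1, FZD7, FZD8, CTNNBIP1, APC2, BTRC, DVL2, CSNK1E, TLE4, TLE2, TCF7, PYGO1, MYC, CCND1, BAMBI and ZNRF3 were added likewise. These last additions, and the vesicle values of SOX17, were not among the values of named genes recomputed under the alternatives. Replicate numbers did not pair the libraries. Over 30 same-numbered pairs in each arm the correlations of deviations lay between -0.05 and 0.06. The 30 pairs of replicates differed by a chi-square per gene of 2.04 to 12.9, so none was a repeated library. Alternatives were DESeq2 1.42.0, relative log expression factors, total-count scaling, no filter, a mean count of at least 50, other sets of libraries in the fit, a replicate term and leaving out each library. Gene ratios within a library were added after seeing the data.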

Additional observations from a re-analysis of the deposited data

Results flagged for a closer look

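The vesicle response differed from the direct response by a test of the difference itself (edgeR's interaction term, adjusted over all genes) for 13 gene values, given here as the vesicle log2 fold change minus the direct one. Of all genes 44.7% were called for TNF, 35.2% for IL1b, 24.2% for epinephrine and 11.9% for C5a. Without SFRP1 the members called were 4 of 5 for TNF, 3 of 5 for IL1b, 2 of 5 for epinephrine and 1 of 5 for C5a. For LRP5 the values were 1.02 for TNF (adjusted p = 1.30e-22), 0.65 for IL1b, 0.61 for epinephrine and 0.30 for C5a (adjusted p = 0.000228). For SFRP1 they were -2.55 for epinephrine (adjusted p = 1.36e-15), -1.18 for IL1b and -0.99 for TNF, with EV-Control already 6.38-fold above Control and the Control libraries shared with the choice of the gene. FZD4 was flagged for TNF at 0.48 (adjusted p = 5.64e-08). For FZD6 the values were -0.38 for TNF (-0.09 with an adjusted p of 0.16 under total-count scaling), -0.22 for epinephrine and -0.16 for IL1b (adjusted p = 0.0256). The IL1b call was lost under total-count scaling (0.358), with no low-count filter (0.094), without EV-Control replicate 1 (0.0723) and without EV-IL1b replicate 1 (0.05). For LRP6 they were -0.29 for IL1b (adjusted p = 0.00361) and -0.23 for TNF (adjusted p = 0.0175), the latter turning to 0.06 under total-count scaling.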

How the results depend on the processing

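Of 1270 values of the tested genes recomputed under the alternatives, 1237 kept their direction and call, 20 lost the call, 9 gained it and 4 turned direction. Of 714 values of other named genes 707 kept both, 2 gained the call (SOX17 after IL1b, -0.20 and -0.22), and 5 lost it, ABCB1 after TNF and WNT9A after epinephrine (adjusted p up to 0.0687 without a Control library or epinephrine replicate 3). Total-count scaling turned FZD6 after TNF to -0.04, LRP6 after TNF to -0.11, FZD6 in IL1b against TNF to 0.00 and the LRP6 interaction for TNF to 0.06, and it left 3 of 6 members called after TNF and 3 in the TNF interaction. It moved the median log2 fold change of all genes to -0.29 for TNF, 0.21 for IL1b against TNF, 0.31 for the TNF interaction and 0.11 for the IL1b interaction, and the split after TNF to 2283 higher and 7783 lower from 4369 and 4019, after IL1b to 2919 and 4637 from 3824 and 3595, and in IL1b against TNF to 6504 and 2041 from 3168 and 3412. The same splits were 6891 and 2093 for the TNF interaction (from 3561 and 3907), 3770 and 2273 for the IL1b interaction (from 2827 and 3052), 1975 and 1305 for EV-Epinephrine (from 1452 and 1679) and 1612 and 2169 for EV-Control against Control (from 2024 and 1635). The 8 genes called for EV-C5a became 5 under total-count scaling, 73 with no filter, and 3 with a mean count of at least 50, with all 30 libraries in the fit or with only the groups compared. Leaving out 1 library gave 2 to 175 genes there (175 without EV-Control replicate 3) and 0 to 1 member (FZD4, -0.18). The same gave 0 to 1 member for EV-IL1b, 1 to 3 for EV-Epinephrine and 1 to 2 for the C5a interaction, and only the groups compared gave 0 for EV-IL1b. FZD6 lost its TNF interaction call under total-count scaling (-0.09) and its IL1b interaction call under total-count scaling (-0.07), with no filter (-0.17) and without EV-Control or EV-IL1b replicate 1 (-0.14 and -0.15). The causes were not tested. Replicate numbers did not pair the libraries, and the replicate block changed none of the calls on these genes, with LRP5 after TNF at -0.95; 5 of 15 direct and 7 of 15 vesicle libraries were closest to their own number. Depth limits AXIN2, LEF1 and APCDD1.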
